A study of Mus musculus with 32 samples.

Results

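The 38 genes described here drive the step from G1 into S phase or copy the DNA: cyclins and their kinases, the RB and E2F regulators, origin licensing factors, replication enzymes and histone deposition factors. They were chosen by symbol, and all 38 were found once among the 55573 genes of each table. All 38 also passed the filter on low counts in both fits, so none was left out. RNA was measured by RNA-seq in 32 libraries of mouse cells (strain 129S5/SvEvBrd). In these cells Smarce1, the gene for the SWI/SNF remodeller subunit BAF57, was tagged with MD, or with MD bearing the change R42A. The labels do not spell MD out; from general knowledge it is taken here as the cyclin B1 fragment that has proteins degraded at the end of mitosis, and MD with R42A as a form that does not.

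The embryonic stem cells (ESC) came from 4 R42A clones (A04, A10, A01 and A02) and 4 MD clones (09, 30, 45 and 47), with 3 libraries per clone, and grew on gelatin in medium with serum and LIF. The neural cells carried the labels A04 and A10 (R42A) and 09 and 30 (MD), with 2 libraries per label, after 6 days of direct neural induction. Every group carries the tag, so there is no untagged control, and each clone is a single line. Consecutive library numbers in the labels form 3 library runs. ESC of A04, A10, 09 and 30 are run 1, ESC of the other 4 clones are run 2, and all neural libraries are run 3. Both genotypes are in each run, but stage and library run cannot be told apart. The clone is the replicate below, and a level is in CPM, the counts of a clone's summed libraries scaled to a common library size.

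In G1, D cyclins with CDK4 or CDK6 phosphorylate RB, which then releases E2F factors, and these switch on the genes for S phase. Cyclin E and cyclin A with CDK2 carry the cell into and through S phase, while p27, the product of Cdkn1b, holds CDK2 back. ORC, CDC6 and CDT1 load the MCM2 to MCM7 helicase onto origins in G1, and CDC45 with the GINS complex makes it active. Mouse ESC are known for a short G1 with high cyclin E, and G1 lengthens in neural progenitors and neurons.

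Library totals ran from 38699951 to 96424439 counts. Smarce1 RNA was 95.7 to 129.1 CPM in R42A and 112.1 to 125.7 CPM in MD ESC clones, and 227.8 to 232.8 CPM in R42A and 286.7 to 299.4 CPM in MD neural cells; these levels do not check the tag, which acts on the protein. Pluripotency markers summed to between 5783 and 7322 CPM in R42A ESC, 4841 and 6072 CPM in MD ESC, and 259.7 and 340.9 CPM in neural cells. Neural progenitor markers summed to between 232.5 and 577.8 CPM in ESC and to between 2440 and 2693 CPM in neural cells. Genes of chromosome 8 were lower in MD (median log2 difference -0.45 in ESC and -0.28 in neural cells) and genes of chromosome 11 higher (0.45 and 0.48), against -0.043 and -0.018 for genes of the other chromosomes. Cdt1, Mcm5 and Gins2 lie on chromosome 8 and Cdc6 on chromosome 11, so their values are also given with each chromosome scaled separately.

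Per kilobase of exon, Cdk4 had the highest mean level over the 12 clone sums (148 CPM per kb), followed by Pcna (126) and the helicase gene Mcm5 (105.9). The lowest were E2f2 (4.89), Cdk6 (5.22) and Rb1 (5.35). Mcm3, Mcm4, Mcm5, Mcm6 and Mcm7, whose proteins stand in 1 ring, lay between 78.9 and 105.9 CPM per kb, and Mcm2 at 51.0.

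**Figure D1:**
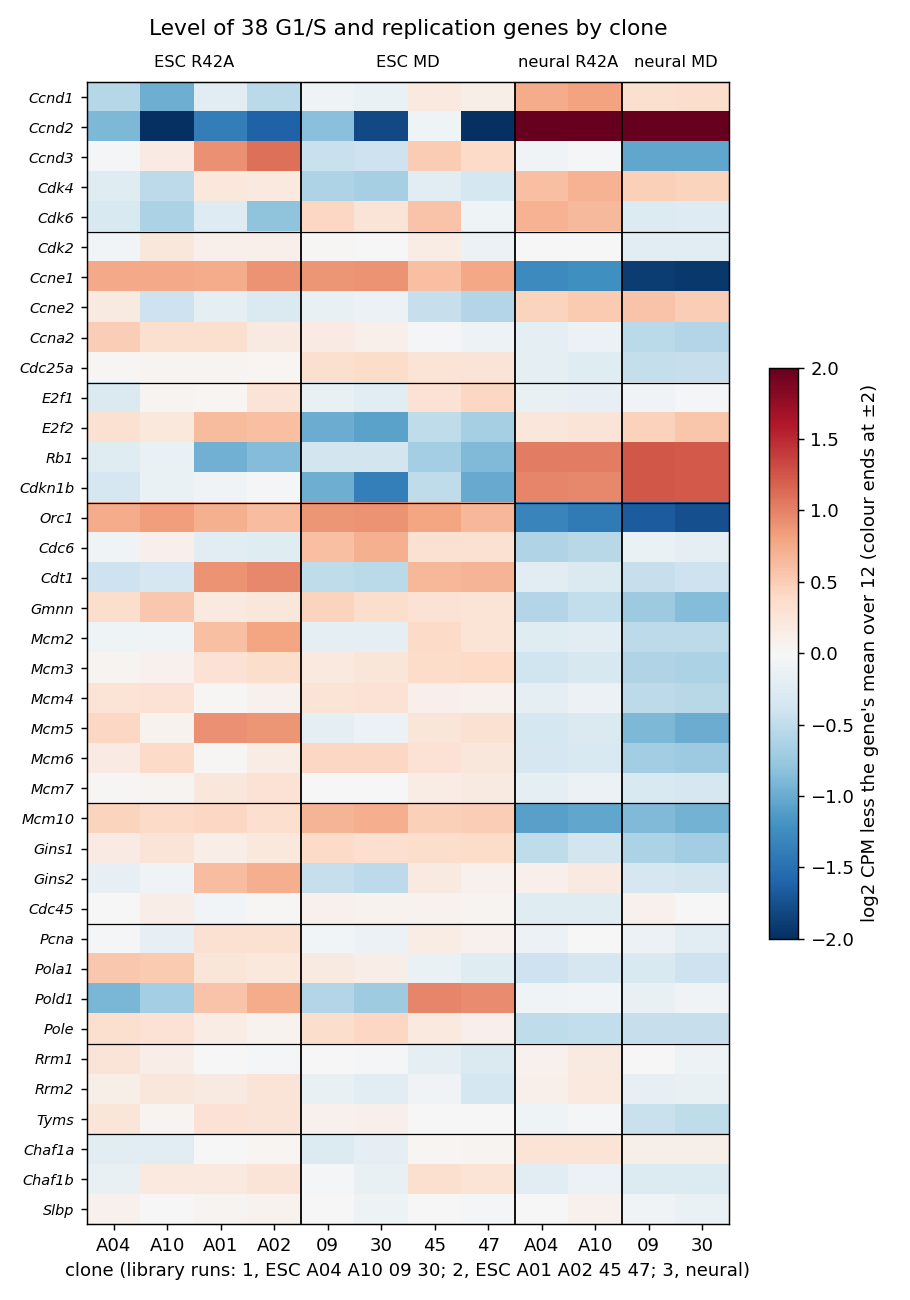
Level of the 38 genes (rows, by role) in the 12 clone sums (columns, by group), as log2 CPM less the gene's mean over the 12, with colour ending at 2 log2 units. Ccne1, Orc1 and Mcm10 are high in all ESC clones and low in all neural ones, Rb1, Cdkn1b and Ccnd2 the other way round, and Pold1 and Cdt1 differ mainly between library runs 1 and 2.

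In ESC, 7 of the 38 genes were higher and 12 lower in MD than in R42A clones, with a median log2 difference of -0.018. Among all 21567 genes tested, 36.5% passed the same test, 17.1% higher and 19.4% lower, and the 19 of 38 lie above that share. The test was edgeR's quasi-likelihood test on 8 clone sums with the library run as a term, with Benjamini-Hochberg adjustment over all genes and a threshold of 0.05. Of all 38 genes, 30 had the same sign in both ESC runs. So did all 19 that passed, but a test over both runs favours such genes. With run 1 alone, or without the run term, only 6 passed. Leaving out 1 clone in turn left 15 to 23 calls. Those of Cdt1, Gins1, Mcm2, Mcm10 and Pold1 were each lost without any of 4 or 5 of the 8 clones, and the other 14 held. With each chromosome scaled separately the split was 9 higher and 8 lower, in place of 7 and 12. Between the same ESC groups 7 of 10 pluripotency markers were lower in MD and the other 3 did not pass (median log2 difference -0.26), and their part in these counts was not tested.

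In neural cells, 4 were higher and 21 lower in MD, with a median log2 difference of -0.19. Genome-wide, 33.7% of 23844 genes passed, 17.4% higher and 16.3% lower, and the median was -0.002. The share of replication genes that passed was 65.8%. This fit took the 8 sums of the 4 clone labels present at both stages. The count rests on the MD labels 09 and 30: 4 genes passed without 09 and 3 without 30, where the lone MD label is assumed to vary like the other groups. Over all genes the number that passed fell strongly in both cases too. All 25 genes kept their sign in both, though they were picked by a fit that held both labels. Off chromosomes 8 and 11, 3 were higher and 18 lower of 34. Scaling each chromosome separately left 19 calls in place of 25, with 3 higher and 16 lower. Gmnn, Rrm1, Chaf1a and Gins2 then no longer passed, and Cdt1 and Cdc6 turned sign without passing.

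Cells of these bulk cultures were not separated, so fewer cells of a kind and less RNA per cell cannot be told apart. Between the same neural groups, all 12 neuron markers were higher in MD, and they summed to between 2664 and 2678 CPM against between 935.5 and 964.8 CPM in R42A, none of them under 1 CPM in every clone of either group. Of 20 mitosis markers 13 were lower and 2 higher in MD, with sums of between 3464 and 3672 CPM against between 3776 and 3954 CPM. Of 8 endoderm markers 2 were lower in MD and the other 6 did not pass, and of 8 smooth muscle and mesenchyme markers 4 were higher and 4 lower. Endoderm markers summed to between 408.2 and 443.5 CPM in MD and between 978.3 and 1111 CPM in R42A, and smooth muscle and mesenchyme markers to between 110 and 115.4 CPM and between 237.9 and 250.9 CPM. In ESC the last list summed to between 90 and 137.5 CPM in MD and between 10.8 and 29.8 CPM in R42A. The part of these cells in the changes of the replication genes was not tested.

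**Figure D2:**
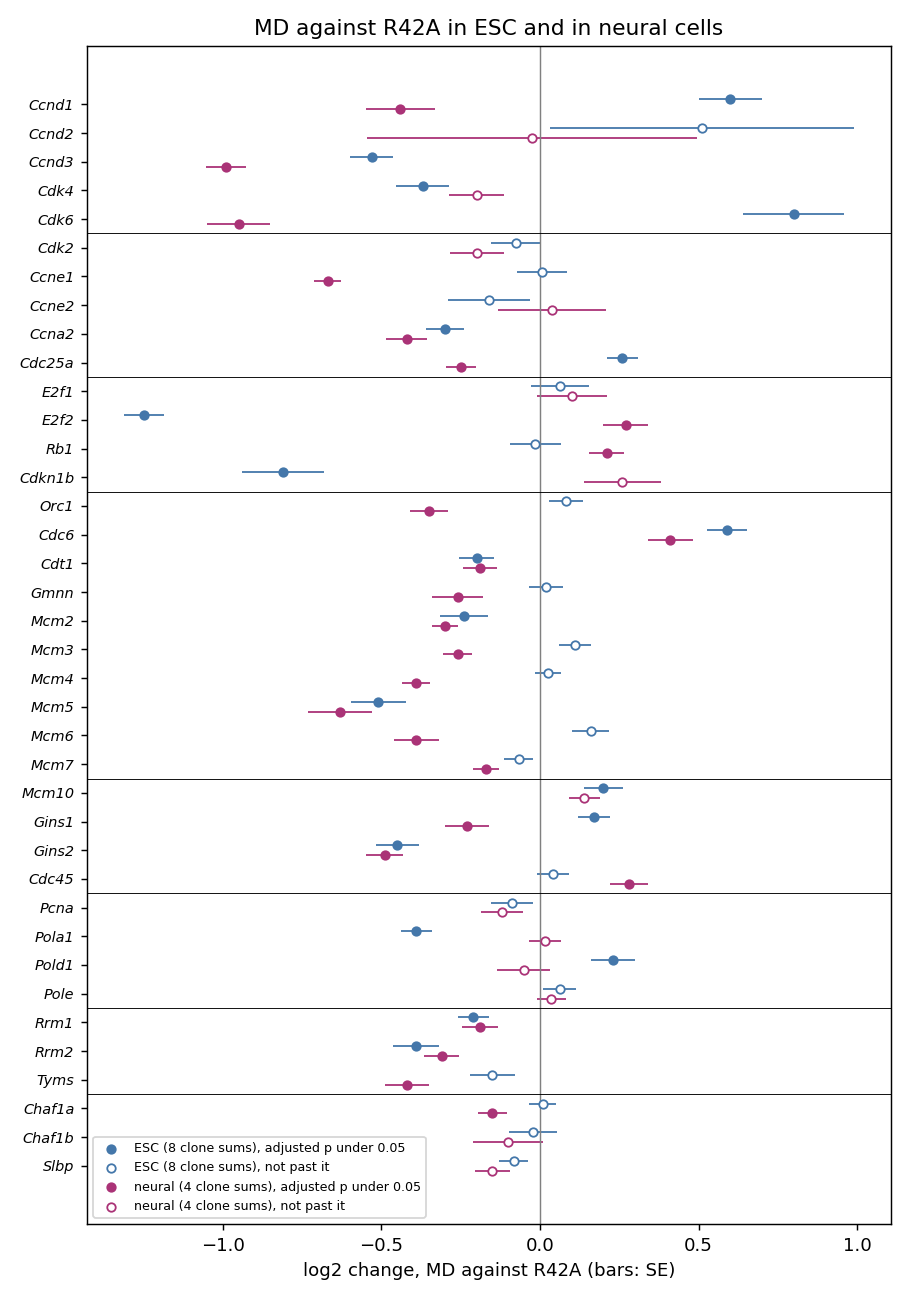
Log2 change of each gene in MD against R42A clones, in ESC (blue) and neural cells (purple), with bars of 1 SE; filled points have an adjusted p under 0.05. In neural cells 21 filled points lie left of 0 and 4 right of it, and Ccnd1, Cdk6, Cdc25a, Gins1 and E2f2 lie on opposite sides in the 2 stages.

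The change in MD itself differed between the stages for 16 genes, 12 with a lower and 4 with a higher value in neural cells than in ESC (interaction term of the same fit, with the ESC of the 4 shared labels). Over all genes 22.9% passed this test, 11.1% lower and 11.9% higher, and far fewer passed without label 09 or without label 30. With the clone label as a block 13 passed; the call was lost for Rb1 (0.34, adjusted p = 0.0724), Mcm2 (-0.22, adjusted p = 0.113) and Tyms (-0.41, adjusted p = 0.0547). Without label 09 only E2f2 passed, and without label 30 edgeR called 0, with 14 genes at an unadjusted p under 0.05 in each case.

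From ESC to neural cells 10 genes were higher and 19 lower in R42A, against 37.9% higher and 40.4% lower (78.3% in all) over all genes. In MD 9 were higher and 20 lower, against 40.3% and 41% (81.3% in all). The share that passed was 76.3% in both, close to that of genes at large. The 2 genotypes gave 18 genes lower in both, 8 higher in both, and 1, Cdk6, with opposite directions. These stage values use ESC of run 1, and some are also given below with run 2 in its place, an alternative chosen after seeing the data. With it 9 genes were higher (23.7%) and 26 lower (68.4%) in R42A, against 39.5% and 41.1% of all genes. In MD 7 were higher (18.4%) and 25 lower (65.8%), against 40.2% and 41.7%. Of the 8 genes higher in both genotypes with run 1, Pold1 was lower in both with run 2. The MD rises of Ccnd1 (0.19, adjusted p = 0.0904 in edgeR) and Chaf1a did not pass there, nor did the MD fall of Cdk6. The calls of Ccnd1, Ccne2 and Cdk2 in MD, and of Ccnd3, Ccne2, Gins2 and Tyms in R42A, were lost without label 09 and without label 30. That of Pold1 in MD was lost without label 30, that of Ccnd3 in R42A also without A10, and that of Tyms in R42A also without A04.

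**Figure D3:**
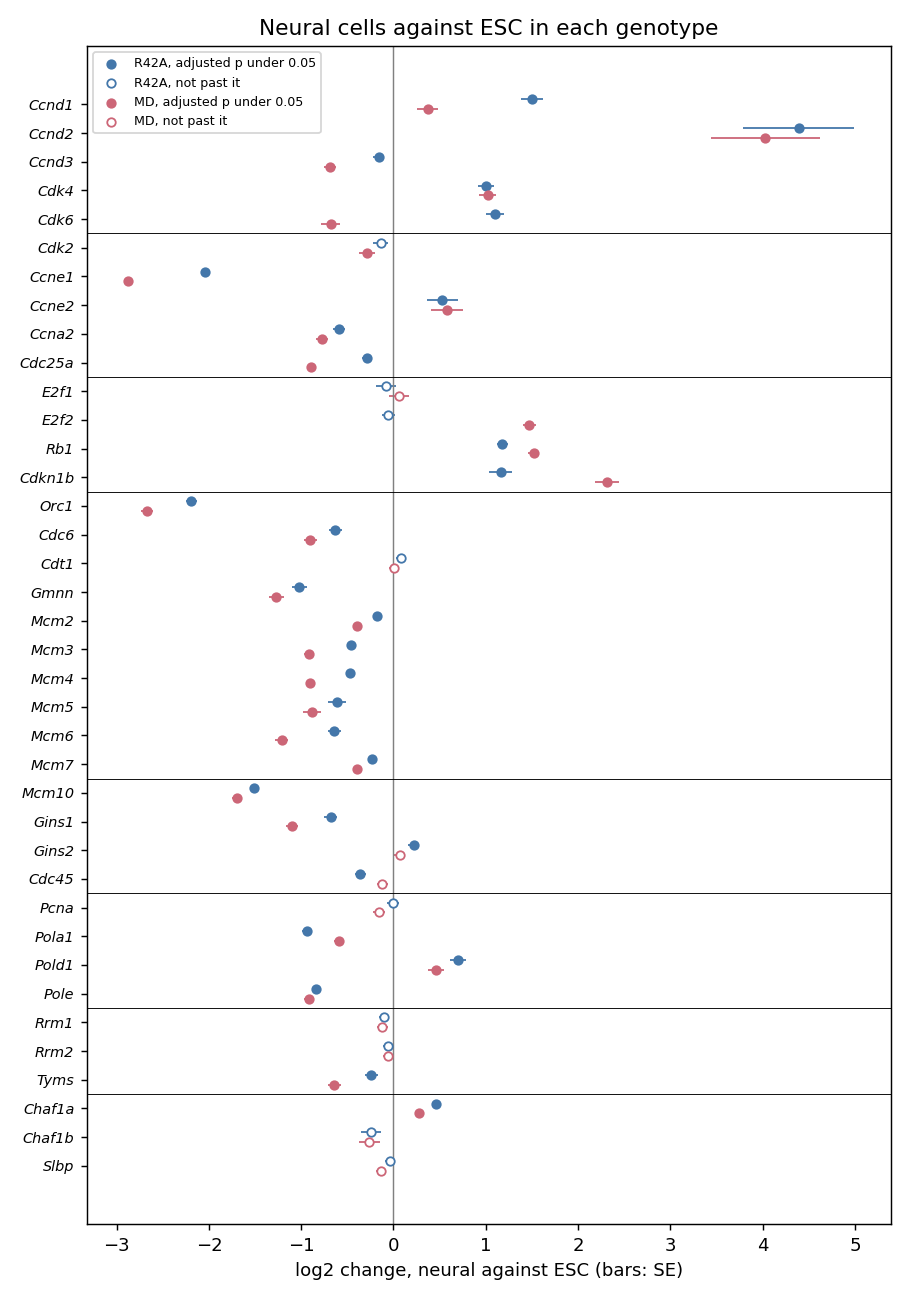
Log2 change of each gene from ESC to neural cells in R42A (blue) and in MD (red), with bars of 1 SE; filled points have an adjusted p under 0.05. Ccnd2 lies farthest right, at 4.39 and 4.03, and Ccne1 and Orc1 farthest left; Cdk6 is to the right of 0 in R42A and to the left in MD.

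Among the D cyclins and their kinases, Ccnd1 and Cdk6 were higher in MD ESC and lower in MD neural cells, while Ccnd3 was lower in MD at both stages. Cyclin D1 is the D cyclin that mitogens induce. Ccnd1 (ENSMUSG00000070348.5, chromosome 7, 144929931 to 144939925 in mm10) was at 100, 75.9, 128 and 102.6 CPM in R42A clones A04, A10, A01 and A02, and at 140.5, 136.8, 171.6 and 161.2 CPM in MD clones 09, 30, 45 and 47. Every MD ESC clone lay above every R42A clone, and the log2 change was 0.60 ± 0.10 (SE; adjusted p = 0.00232 in edgeR). In neural cells Ccnd1 was at 249.8 and 259.6 CPM in R42A and at 186.8 and 190 CPM in MD, a log2 change of -0.44 ± 0.11 (adjusted p = 0.0235). The difference between the stages was -1.13 ± 0.16 (adjusted p = 0.00382).

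Cdk6, a kinase partner of the D cyclins, showed the widest gap between the stages. Cdk6 (chromosome 5, 3341485 to 3531008) was at 55.8, 44.7, 57.9 and 39.7 CPM in R42A ESC and at 92.1, 82.5, 103 and 65.4 CPM in MD ESC, with no overlap and a log2 change of 0.80 ± 0.16 (adjusted p = 0.00553). In neural cells the order was turned: R42A had 112.3 and 108.8 CPM and MD 57.2 and 57.6 CPM, a log2 change of -0.95 ± 0.10 (adjusted p = 0.000804). The difference of the 2 changes was -1.78 ± 0.15 (adjusted p = 0.000657). Cdk6 therefore rose by 1.10 ± 0.10 from ESC to neural cells in R42A and fell by 0.68 ± 0.10 in MD. With ESC of run 2 the fall in MD was -0.54 and no longer passed (adjusted p = 0.116).

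Ccnd3 encodes the third D cyclin (chromosome 17, 47505051 to 47599691). Its ESC level was 171.9 and 194.5 CPM in the R42A clones of run 1 and 328.8 and 376.2 CPM in those of run 2, against 128.2 and 131.3 CPM, and 246.8 and 228.3 CPM, in the MD clones. MD lay below R42A within each run, by -0.53 ± 0.07 (adjusted p = 0.000555). In neural cells Ccnd3 was at 166.6 and 169.2 CPM in R42A and at 84.5 and 85.2 CPM in MD, and fell by 0.99 ± 0.06 (adjusted p = 0.000138). Ccnd3, Cdk6 and the cyclin E gene Ccne1 were the 3 genes whose neural call held both without label 09 and without label 30. From ESC to neural cells Ccnd3 fell by 0.16 in R42A (adjusted p = 0.0484, and 0.0666 with the clone label as a block) and by 0.69 in MD. Against ESC of run 2 the values were -1.06 in R42A (adjusted p = 7.59e-07) and -1.47 in MD (adjusted p = 9.92e-08).

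Cdk4, the other D cyclin kinase, was lower in MD ESC (-0.37 ± 0.08, adjusted p = 0.00816), though the ranges of 316.6 to 529.4 CPM in R42A and 286.7 to 389.6 CPM in MD overlapped across runs. It rose 1.99-fold in R42A, to 692.5 and 740.7 CPM in neural cells, and 2.03-fold in MD, to 631.3 and 621.3 CPM. Those log2 changes of 1.00 and 1.02 were 0.46 and 0.76 against ESC of run 2 (adjusted p = 6.5e-05 and 2.12e-06). Ccnd2, the D cyclin known for its place in neural progenitors, was the gene that rose most: from 14.7 to 50.4 CPM in R42A ESC to 714.1 and 677.9 CPM in neural cells, and from 20.7 to 88.9 CPM in MD ESC to 686.9 and 684.7 CPM. The fold was 20.9 in R42A (log2 4.39 ± 0.60, adjusted p = 0.000348) and 16.3 in MD (4.03 ± 0.59, adjusted p = 0.000471). ESC clones of 1 genotype differed widely in Ccnd2, and MD against R42A did not pass at either stage (0.51 ± 0.48 in ESC and -0.025 ± 0.52 in neural cells).

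Among genes for cyclins E and A, CDK2 and CDC25A, 3 of 5 were lower in MD neural cells than in R42A, where 16.3% of all genes were lower. By stage, 3 of 5 fell in R42A and 4 of 5 in MD, against 40.4% and 41% of all genes. Ccne1 encodes cyclin E1, which with CDK2 starts S phase (chromosome 7, 38097984 to 38107534). It was at 249.4, 251.5, 247.1 and 276.3 CPM in R42A ESC and at 272.5, 276, 225.9 and 253.9 CPM in MD ESC, overlapping ranges with a log2 change of 0.0064 ± 0.078 (adjusted p = 0.957). Neural cells had 61.6 and 63.5 CPM in R42A and 39.7 and 39.1 CPM in MD, a log2 change of -0.67 ± 0.04 (adjusted p = 0.000123). The fall from ESC was 4.10-fold in R42A and 7.34-fold in MD (-2.04 and -2.88), and the difference between them was -0.84 ± 0.06 (adjusted p = 0.00039).

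Ccne2, the gene of the second cyclin E, was low in all groups and went the other way, from 19.6 to 29.7 CPM in R42A ESC to 35.7 and 37.4 CPM in R42A neural cells (0.53 ± 0.17, adjusted p = 0.0219), and likewise in MD (0.58 ± 0.17, adjusted p = 0.0147). Ccna2, the cyclin A2 gene, was lower in MD in ESC (-0.30 ± 0.06, adjusted p = 0.00526) and in neural cells (-0.42 ± 0.07, adjusted p = 0.00306), at 201 and 210.6 CPM in R42A and 157.4 and 152 CPM in MD neural cells. Cdk2 itself did not pass in MD against R42A (-0.077 in ESC, -0.20 in neural cells), and fell from ESC to neural cells in MD by 0.29 (adjusted p = 0.0142). The change in R42A was -0.14 (adjusted p = 0.168), and the difference between the genotypes did not pass (-0.15, adjusted p = 0.4).

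CDC25A is the phosphatase that removes inhibitory phosphates from CDK2. Cdc25a was at 115.7, 118.3, 118.7 and 117.3 CPM in R42A ESC and at 142.3, 146.8, 137.3 and 136.5 CPM in MD ESC, without overlap (0.26 ± 0.05, adjusted p = 0.00374). Neural cells had 99.2 and 96.6 CPM in R42A and 81.6 and 83.1 CPM in MD (-0.25 ± 0.05, adjusted p = 0.00644). The sign thus turned between the stages, by -0.59 ± 0.07 (adjusted p = 0.00167).

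The RB, E2F and p27 genes held the largest MD change in ESC among the 38. E2f2 encodes an activator E2F (ENSMUSG00000018983.9, chromosome 4, 136172394 to 136196057). It was at 27.2, 25.6, 34.2 and 33.6 CPM in R42A ESC and at 11.1, 10.5, 15.5 and 13.9 CPM in MD ESC. No clone of one genotype reached the other, and the level was 2.37-fold lower in MD (log2 -1.25 ± 0.06, adjusted p = 1.63e-05), with -1.28 to -1.19 over the alternatives. In neural cells R42A had 25.8 and 26.3 CPM and MD 30.3 and 32.6 CPM, a rise of 0.27 ± 0.07 (adjusted p = 0.0239). From ESC to neural cells E2f2 rose 2.77-fold in MD (1.47 ± 0.07) and had a change of -0.056 ± 0.07 in R42A that did not pass. The difference was 1.52 ± 0.10 (adjusted p = 0.000344). Against ESC of run 2 the E2f2 change was 1.11 in MD (adjusted p = 1.47e-06) and -0.37 in R42A, which passed (adjusted p = 0.00209).

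Cdkn1b, the p27 gene (chromosome 6, 134920401 to 134925513), was also lower in MD ESC. It was at 31.1, 35.9, 37.6 and 38.8 CPM in R42A ESC and at 20, 15.3, 27.6 and 19.5 CPM in MD ESC (-0.81 ± 0.13, adjusted p = 0.00146), with every MD clone below every R42A clone. Neural cells had 77.5 and 76.5 CPM in R42A and 92.7 and 91.7 CPM in MD, a difference that did not pass (0.26 ± 0.12, adjusted p = 0.154). The rise from ESC was 2.24-fold in R42A and 4.96-fold in MD, and differed between them by 1.15 ± 0.17 (adjusted p = 0.00482).

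Rb1, the gene of the RB protein, rose 2.26-fold from ESC to neural cells in R42A and 2.87-fold in MD. It was at 13.8 to 24.5 CPM in R42A ESC and 14.6 to 21 CPM in MD ESC (-0.015, adjusted p = 0.904), and at 54.9 and 54.8 CPM in R42A and 63.8 and 63.1 CPM in MD neural cells (0.21 ± 0.06, adjusted p = 0.0277). Against ESC of run 2 the log2 rise of Rb1 was 1.95 in R42A and 2.03 in MD, where run 1 gave 1.18 and 1.52. The difference between stages for Rb1 was 0.076 and did not pass with ESC of run 2 (adjusted p = 0.659). E2f1, another activator E2F, ranged only from 33.8 to 55.1 CPM over all 12 clone sums and did not pass in MD against R42A (0.064, adjusted p = 0.62, in ESC and 0.10, adjusted p = 0.501, in neural cells). With ESC of run 2 the E2f1 change from ESC to neural cells was -0.30 in R42A (adjusted p = 0.00721) and -0.39 in MD (adjusted p = 0.00184).

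**Figure D4:**
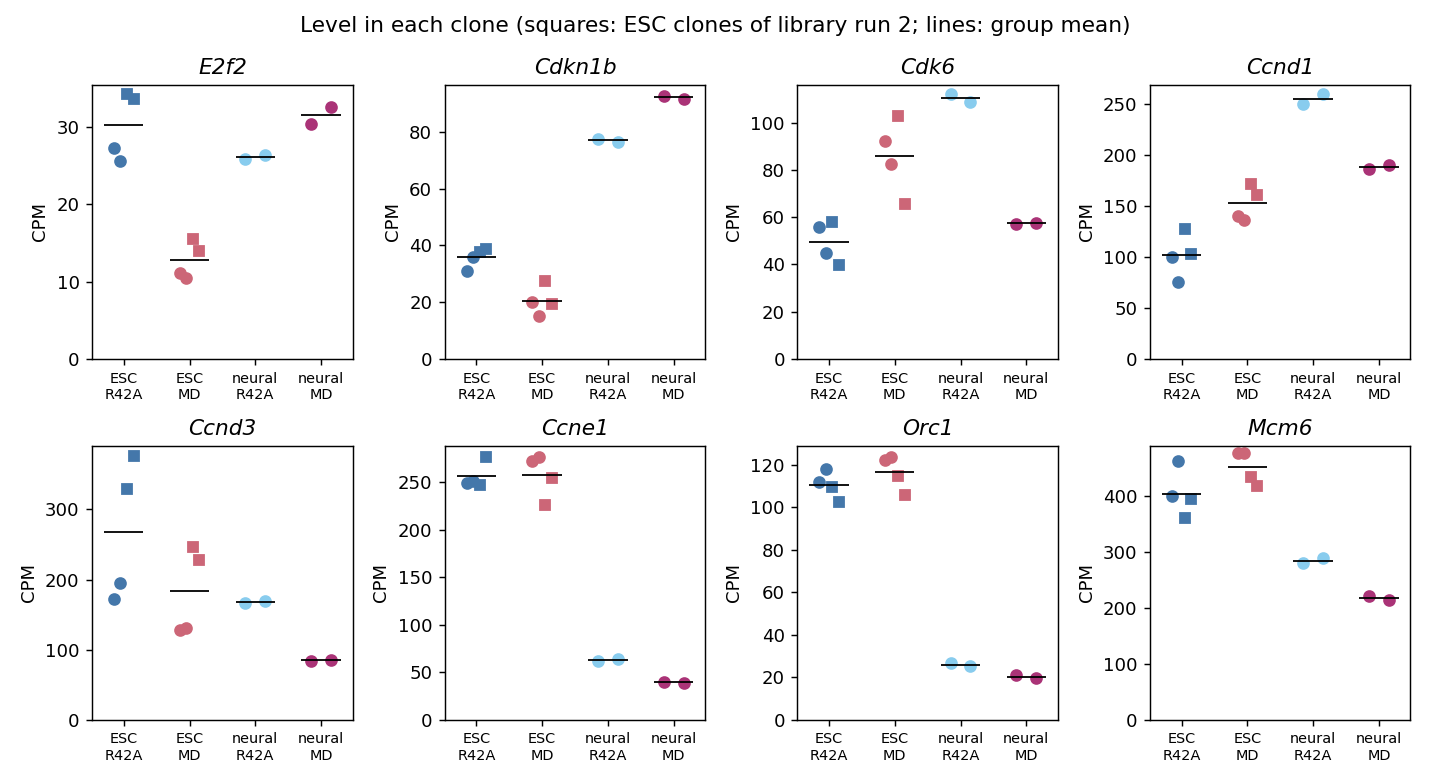
Level (CPM, linear axes from 0) of 8 genes in each clone, by group, with ESC clones of library run 2 as squares and the group mean as a line. E2f2 and Cdkn1b are low in the 4 MD ESC clones, Cdk6 and Ccnd1 change order between ESC and neural cells, and Ccne1, Orc1 and Mcm6 are lowest in MD neural cells.

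Of 10 origin licensing genes 9 were lower and 1, Cdc6, higher in MD neural cells, where 16.3% of all genes were lower. In ESC 3 were lower and 1 higher, against 19.4% and 17.1% of all genes. From ESC to neural cells 9 of 10 fell in each genotype, all but Cdt1, against 40.4% of all genes in R42A and 41% in MD. ORC1 is the largest subunit of the complex that marks origins. Orc1 (chromosome 4, 108579423 to 108614833) was at 102.4 to 118.3 CPM in R42A ESC and 106 to 123.9 CPM in MD ESC (0.082, adjusted p = 0.265). It fell to 26.6 and 25.1 CPM in R42A and to 21.1 and 19.6 CPM in MD neural cells, a fold of 4.56 and 6.37. MD lay below R42A there (-0.35 ± 0.06, adjusted p = 0.005), and the difference between stages was -0.48 ± 0.09 (adjusted p = 0.00825).

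The helicase genes Mcm2 to Mcm7 summed to 2396 and 2370 CPM in R42A and 2302 and 2333 CPM in MD in ESC of run 1. In run 2 they summed to 2830 and 2975 CPM in R42A and 2575 and 2567 CPM in MD. Neural cells had 1772 and 1844 CPM in R42A and 1444 and 1410 CPM in MD, the lowest of all groups. In neural cells each of the 6 was lower in MD, by -0.63 ± 0.10 for Mcm5, -0.39 ± 0.07 for Mcm6, -0.39 ± 0.04 for Mcm4, -0.30 ± 0.04 for Mcm2, -0.26 ± 0.05 for Mcm3 and -0.17 ± 0.04 for Mcm7 (adjusted p from 0.000846 to 0.0187 in edgeR). Of these 6 calls, only that of Mcm4 held without label 09 and none held without label 30.

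In ESC the 6 genes did not share a direction. Mcm5 and Mcm2 were lower in MD (-0.51 ± 0.09, adjusted p = 0.00223, and -0.24 ± 0.08, adjusted p = 0.038), while Mcm6 had 0.16 ± 0.06 (adjusted p = 0.0578) and Mcm3 0.11 ± 0.05 (adjusted p = 0.103). Mcm6 (chromosome 1, 128331590 to 128359664) was at 398.6, 461.9, 359.5 and 393.5 CPM in R42A ESC and at 475.4, 475.8, 432.9 and 416.5 CPM in MD ESC. It was then at 280.1 and 287.7 CPM in R42A and at 220.1 and 214.4 CPM in MD neural cells. The test of the difference passed for Mcm6 (-0.57), Mcm3 (-0.45), Mcm4 (-0.43) and Mcm2 (-0.22), though for Mcm2 it was 0.071 and did not pass with ESC of run 2 (adjusted p = 0.64). It did not pass for Mcm5 (-0.26, adjusted p = 0.241) or Mcm7 (-0.16, adjusted p = 0.0877).

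Mcm5 lies on chromosome 8 (75109569 to 75128439). It was at 521.4, 411.4, 735 and 722.8 CPM in R42A ESC, at 346.1, 359.5, 464.7 and 483.1 CPM in MD ESC, and at 306 and 319.6 CPM in R42A and 209 and 196.2 CPM in MD neural cells. With each chromosome scaled separately its ESC change was -0.035 (adjusted p = 0.642), whereas the neural change still passed at -0.31 (adjusted p = 0.00395). Under the same scaling the ESC change of Mcm2 was -0.12 (adjusted p = 0.17), and Mcm3 and Mcm6 passed as higher, at 0.16 and 0.21 (adjusted p = 0.0376 and 0.0304).

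CDC6 and CDT1 bring the helicase to the origin, and geminin, the product of Gmnn, holds CDT1 back. Cdc6, on chromosome 11, was at 86.2 to 109.1 CPM in R42A ESC and 124.7 to 166.7 CPM in MD ESC (0.59 ± 0.06, adjusted p = 0.000222), and at 66.8 and 69.2 CPM in R42A and 92.1 and 89.3 CPM in MD neural cells (0.41 ± 0.07, adjusted p = 0.00465). With each chromosome scaled separately neither passed (0.13, adjusted p = 0.102, and -0.032, adjusted p = 0.7). Cdt1, on chromosome 8, was at 83.7 and 88.8 CPM in R42A and 79.1 and 77.3 CPM in MD ESC of run 1, but at 209.9, 219.4, 176.9 and 178.7 CPM in run 2. Its fall in MD (-0.20 in ESC, adjusted p = 0.02, and -0.19 in neural cells, adjusted p = 0.0346) turned to 0.26 (adjusted p = 0.0433) and 0.13 (adjusted p = 0.408) with each chromosome scaled separately. Against ESC of run 2, Cdt1 fell in neural cells by 1.18 in R42A and by 1.09 in MD, where run 1 gave 0.084 and 0.0015.

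Gmnn fell 2.02-fold from ESC to neural cells in R42A, from 82.9 and 94.5 CPM in run 1 to 43.4 and 46.4 CPM, and 2.42-fold in MD, from 89.1 and 83.4 CPM to 39.3 and 35.9 CPM. In neural cells it was lower in MD by 0.26 ± 0.08 (adjusted p = 0.042, and 0.0653 with each chromosome scaled separately). In ESC the change was 0.019 (adjusted p = 0.813).

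**Figure D5:**
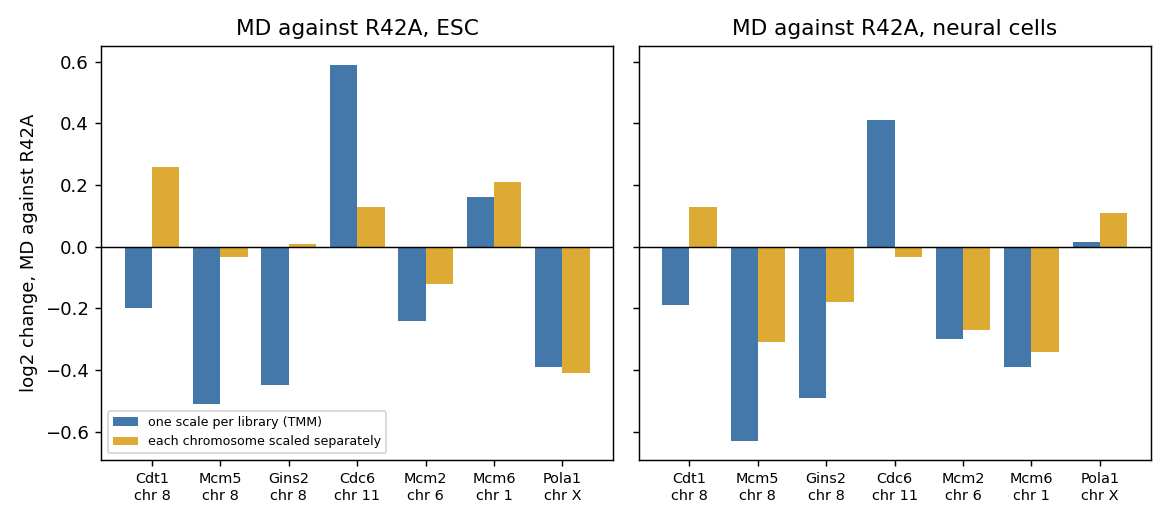
Log2 change in MD against R42A for 7 genes, with one scale per library (blue) and with each chromosome scaled separately (yellow), in ESC (left) and neural cells (right). For the chromosome 8 and 11 genes Cdt1, Mcm5, Gins2 and Cdc6 the 2 scales differ most; Mcm5 and Mcm6 stay below 0 in neural cells under both.

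Promoters of replication genes are known for E2F sites. RefSeq windows of 300 bases (250 before to 50 after the start, build GRCm38.p6, whose coordinates are those of mm10) were at hand for 28 of the 38 genes. They were searched on both strands for TTTCCCGC, TTTCGCGC, TTTGCCGC and TTTGGCGC, which can overlap where one strand's match runs into the other's. Of the 28 genes 12 (42.9%) held at least 1 match, against 704 of 27025 genes (2.6%) with a window. The 12 were Cdc25a, Cdc6, Cdk2, Cdt1, E2f2, Mcm3, Mcm5, Mcm6, Mcm7, Orc1, Pola1 and Pold1. Within the 28, 7 of the 12 with a match and 8 of the 16 without one were lower in MD neural cells, with median log2 differences of -0.20 and -0.17. The stretches around the matches upstream of the start are shown for 4 of them, since Mcm5, Mcm6 and Cdc25a were lower in MD neural cells and Pola1 was not. Matched bases are in capitals, each stretch reads 5′ to 3′ on the gene's strand, and none overlaps an annotated exon. They lie at chr8:75109336-75109387 (plus strand), chr1:128359725-128359835 (minus), chr9:109875492-109875539 (plus) and chrX:93632266-93632313 (minus), in this order.
Mcm5: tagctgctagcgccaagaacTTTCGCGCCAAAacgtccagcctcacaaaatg
Mcm6: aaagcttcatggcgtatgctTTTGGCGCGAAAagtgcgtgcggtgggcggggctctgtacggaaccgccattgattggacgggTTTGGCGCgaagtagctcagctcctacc
Cdc25a: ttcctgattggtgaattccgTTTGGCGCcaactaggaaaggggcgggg
Pola1: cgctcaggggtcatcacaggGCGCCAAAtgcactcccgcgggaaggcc
In Mcm5 and at the upstream place in Mcm6 a match on one strand overlaps a match on the other. A match of letters is not a measured binding site, and no binding was measured here.

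Helicase activation genes were split. MCM10 helps the loaded helicase to start, and Mcm10 fell from between 212.2 and 230.3 CPM in R42A ESC to 79.7 and 82 CPM in neural cells (2.85-fold), and from between 235.4 and 278.3 CPM in MD ESC to 91.1 and 87.3 CPM (3.24-fold). It was higher in MD in ESC (0.20 ± 0.06, adjusted p = 0.028), and in neural cells the change of 0.14 ± 0.05 did not pass (adjusted p = 0.0651). Gins1, a GINS subunit, was higher in MD ESC (0.17 ± 0.05, adjusted p = 0.0279) and lower in MD neural cells (-0.23 ± 0.07, adjusted p = 0.0367), at 24.6 and 27.2 CPM in R42A and 22.6 and 21.6 CPM in MD. The difference was -0.42 ± 0.10 (adjusted p = 0.0217). It rests on the ESC of the 4 shared labels, where Gins1 was at 0.19, short of the threshold (edgeR, adjusted p = 0.0885).

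Gins2, the GINS subunit gene on chromosome 8, was lower in MD at both stages (-0.45 ± 0.07, adjusted p = 0.00111, and -0.49 ± 0.06, adjusted p = 0.00107). With each chromosome scaled separately these were 0.0097 (adjusted p = 0.948) and -0.18 (adjusted p = 0.289), and neither passed. Its R42A change from ESC to neural cells was 0.22 (adjusted p = 0.0104) against ESC of run 1 and -0.52 (adjusted p = 5.4e-05) against run 2. Cdc45, whose product joins MCM and GINS in the moving helicase, was higher in MD neural cells, at 59.2 and 55.6 CPM against 47.2 and 47.3 CPM (0.28 ± 0.06, adjusted p = 0.0119), and at 54 to 61.7 CPM in all 8 ESC clones.

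None of the 4 polymerase and clamp genes passed in MD against R42A neural cells (adjusted p from 0.223 to 0.858 in edgeR). Over all genes 33.7% passed that test, so most genes at large did not pass either. PCNA is the clamp that holds the polymerases on DNA, and Pcna had -0.088 (adjusted p = 0.318) in ESC and -0.12 (adjusted p = 0.223) in neural cells. Pole, the catalytic subunit gene of the leading strand polymerase, fell from ESC to neural cells by 0.84 in R42A and 0.92 in MD, to 118 and 118.5 CPM in R42A and 121.8 and 121.2 CPM in MD. Pola1, the catalytic subunit gene of the polymerase that starts each strand, was at 176.8, 175.1, 143.6 and 140.6 CPM in R42A ESC and at 137.9, 133.4, 110.5 and 103.3 CPM in MD ESC, lower within each run (-0.39 ± 0.05, adjusted p = 0.000454). In neural cells all 4 labels lay between 91.5 and 98.9 CPM (0.015, adjusted p = 0.858). The difference between stages for Pola1 was 0.35 ± 0.07 (adjusted p = 0.0141).

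Pold1, the catalytic subunit gene of the lagging strand polymerase, differed far more between ESC runs than between genotypes. It was at 45.1 and 53.2 CPM in R42A and 56.9 and 52.1 CPM in MD in run 1, and at 126.5 and 142.9 CPM in R42A and 168.6 and 163.5 CPM in MD in run 2. The MD change in ESC was 0.23 ± 0.07 (adjusted p = 0.0293). Neural cells had 77.3 to 82.2 CPM, which was higher than ESC of run 1 (0.70 in R42A and 0.46 in MD, adjusted p = 0.000194 and 0.00166) and lower than ESC of run 2 (-0.71 and -1.06, adjusted p = 7.76e-06 and 5.34e-07). No direction of Pold1 from ESC to neural cells can be read from these libraries.

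Deoxynucleotide genes were lower in MD neural cells in all 3 cases, where 16.3% of all genes were lower. Rrm1 and Rrm2 were also lower in MD ESC, where 19.4% of all genes were. RRM1 and RRM2 are the subunits of ribonucleotide reductase, which makes deoxynucleotides, and TYMS makes thymidylate. Rrm2 was at 287.8, 311.1, 301.8 and 319.4 CPM in R42A ESC and at 240.4, 229.2, 253.7 and 207.9 CPM in MD ESC (-0.39 ± 0.07, adjusted p = 0.0037). In neural cells it was at 286.5 and 304.1 CPM in R42A and at 236.5 and 239.5 CPM in MD (-0.31 ± 0.06, adjusted p = 0.00524). These ranges do not overlap at either stage, and the difference between stages was 7.8e-05. From ESC to neural cells the change of Rrm2 was -0.056 ± 0.06 in each genotype and did not pass (adjusted p = 0.376 and 0.371).

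Rrm1 was lower in MD by 0.21 ± 0.05 in ESC (adjusted p = 0.0121) and by 0.19 ± 0.06 in neural cells (adjusted p = 0.0416, and 0.0598 with each chromosome scaled separately). Tyms was at 79.9 and 83.5 CPM in R42A and at 62.6 and 59.7 CPM in MD neural cells (-0.42 ± 0.07, adjusted p = 0.00363), and had -0.15 ± 0.07 in ESC (adjusted p = 0.12). The difference between stages for Tyms was -0.15 and did not pass with ESC of run 2 (adjusted p = 0.169).

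Among the histone genes, Chaf1a changed with stage and Chaf1b and Slbp did not pass. CHAF1A and CHAF1B are subunits of CAF-1, which places histones on new DNA, and SLBP binds the stem loop of histone mRNA. Chaf1a rose from ESC to neural cells, to 156.9 and 156.8 CPM in R42A (0.46 ± 0.05, adjusted p = 6.52e-05) and to 141.6 and 141.5 CPM in MD (0.28 ± 0.05, adjusted p = 0.00086; 0.088 and not past the test with ESC of run 2, adjusted p = 0.117). It was lower in MD neural cells by 0.15 ± 0.05 (adjusted p = 0.0407, and 0.0874 with each chromosome scaled separately). Chaf1b had -0.24 in R42A and -0.26 in MD from ESC to neural cells (adjusted p = 0.0684 and 0.0539), which passed under several alternatives, among them the clone label as a block (-0.23 and -0.26, adjusted p = 0.037 and 0.0252) and ESC of run 2 (-0.39 and -0.56, adjusted p = 0.000164 and 1.44e-05). Slbp lay between 127.8 and 148.5 CPM in all 12 clone sums. Its change from ESC to neural cells was -0.041 in R42A and -0.13 in MD (adjusted p = 0.505 and 0.0556). With each chromosome scaled separately both passed (-0.16 and -0.26, adjusted p = 0.0276 and 0.00267), and in MD 5 of 11 alternatives passed.

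Over all genes 19.4% were lower in MD ESC and 16.3% in MD neural cells. By gene, 8 of the 38 were lower in MD at both stages: Ccnd3, Ccna2, Cdt1, Mcm2, Mcm5, Gins2, Rrm1 and Rrm2. When each chromosome was scaled separately, Ccnd3, Ccna2 and Rrm2 still passed as lower at both stages. Mcm2 and Mcm5 then did not pass in ESC, Rrm1 did not pass in neural cells, and Gins2 passed at neither stage. Cdt1 turned to 0.26 in ESC and 0.13 in neural cells. A further 9 passed as lower in MD in neural cells and did not pass in ESC: Ccne1, Orc1, Gmnn, Mcm3, Mcm4, Mcm6, Mcm7, Tyms and Chaf1a. For Ccne1, Orc1, Mcm3, Mcm4, Mcm6 and Tyms the difference between stages passed its own test; for Gmnn (-0.26, adjusted p = 0.145), Mcm7 and Chaf1a (-0.18, adjusted p = 0.0941) it did not. Ccnd1, Cdk6, Cdc25a and Gins1 were higher in MD ESC and lower in MD neural cells, E2f2 the reverse, and Cdc6 higher at both stages. When each chromosome was scaled separately, Cdc6 had 0.13 in ESC and -0.032 in neural cells, and neither passed.

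Of 81 other genes of these pathways, 13 were higher and 25 lower in MD neural cells (46.9%, against 33.7% of all genes), and in ESC 11 were higher and 23 lower (42%, against 36.5%). The largest ESC changes were in Rbl2, the gene of the RB relative p130, at 18.6 to 23.3 CPM in R42A and 7.78 to 9.76 CPM in MD (-1.23 ± 0.08, adjusted p = 3.45e-05), and in Gins3, a GINS subunit (-0.93 ± 0.12, adjusted p = 0.000629). Others were E2f4, a repressor E2F, with -0.76 ± 0.09 (adjusted p = 0.000419), and Dctd, a deaminase of the thymidylate pathway, with -0.70 ± 0.14 (adjusted p = 0.00433). All 4 of these genes lie on chromosome 8. Under separate scaling of each chromosome Rbl2 had -0.77 (adjusted p = 0.000325), Gins3 -0.45 (adjusted p = 0.00367) and E2f4 -0.29 (adjusted p = 0.00422), and Dctd did not pass (-0.22, adjusted p = 0.0849). In neural cells Samhd1, which breaks down deoxynucleotides, was at 98.8 and 100.8 CPM in R42A and 52.3 and 53.1 CPM in MD (-0.92 ± 0.06, adjusted p = 0.000152). Cdkn2c, the p18 CDK inhibitor gene, was at 2.63 and 2.72 CPM in R42A and 5.71 and 5.87 CPM in MD (1.11 ± 0.14, adjusted p = 0.00133). The polymerase delta subunit genes Pold2 (0.68 ± 0.09, adjusted p = 0.00192) and Pold4 (1.18 ± 0.29, adjusted p = 0.0195) were higher in MD. Pold2 lies on chromosome 11 and had 0.23 (adjusted p = 0.0423) with each chromosome scaled separately.

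From ESC to neural cells 5 of the 6 other CDK inhibitor genes rose in each genotype, against 37.9% of all genes in R42A and 40.3% in MD. Against ESC of run 2, 3 of the 6 rose and 1 fell in R42A, and 4 rose in MD. Over all genes 39.5% rose and 41.1% fell there in R42A, and 40.2% rose in MD. Cdkn2a in R42A had 1.43 (adjusted p = 0.00337) against ESC of run 1 but -0.68 (adjusted p = 0.238) against run 2. Cdkn1c, the p57 gene, went from 6.14 and 6.12 CPM in R42A ESC of run 1 to 45.1 and 43.6 CPM (7.06-fold), and in MD from 6.14 and 5.93 CPM to 43 and 43 CPM (6.76-fold). Those log2 rises of 2.82 and 2.76 were 1.96 and 2.12 against ESC of run 2 (adjusted p = 0.00391 and 0.00285). Cdkn1a, the p21 gene, rose 3.35-fold in R42A, to 158 and 154.3 CPM, and 3.02-fold in MD, to 103.1 and 101.6 CPM. Of 26 further fork and synthesis genes 19 fell and 2 rose in R42A (80.8%), and 20 fell and 3 rose in MD (88.5%), against 78.3% and 81.3% of all genes. Hat1, which acetylates new histones, fell 3.40-fold and 3.93-fold.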

How the data were processed

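Each library has its own deposited table of expected counts, which the authors did not normalize. RSEM 1.3.0, STAR 2.7.1a, Trim Galore 0.60 and DESeq2 (no version), with the build mm10, appear in the submitters' processing notes without roles; the annotation release and the use of strand are not given in the sources used here, so overlapping and antisense genes are uncertain. Counts were rounded and summed over the libraries of a clone. Positions came from GENCODE M21 (mm10).

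Tests were run in edgeR 4.0.16 (R 4.3.3; quasi-likelihood, robust, TMM, filterByExpr with a minimum count of 10, Benjamini-Hochberg, threshold 0.05). The ESC fit held 8 clone sums with the library run. All other comparisons came from 1 fit of 4 groups on 8 sums. CPM use TMM library sizes, and ± is the SE of a log2 change. With DESeq2 1.42.0 and the other settings as alternatives, 1 choice was changed at a time. On simulated data with 200 changed genes, 76% of genes changed 2-fold were recovered in the ESC design (21567 genes) and 44% in the neural design (23844 genes). At 1.5-fold it was 38% in both, and at 1.25-fold 8% and 2%. Far more genes passed in the real data, so these shares do not measure the sensitivity of the tests there. Nothing says that libraries of a clone are separate cultures, and p-values measure the spread between clone sums.

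The 38 genes, the lists and the tests were chosen with earlier results of these data known. All 38 genes are named; of the 81 others, at most the 4 with the largest change among those called, at a mean of at least 1 CPM. Clone labels pair ESC and neural cells of the same line, from the labels; deviations of paired sums correlated at -0.0197 (R42A) and 0.0161 (MD). Replicate numbers were not taken to pair libraries. For same and different numbers the median r was 0.046 and -0.0411 in run 1, and 0.162 and -0.0423 in run 2. In run 3 it was 0.0149 and -0.0149, which mirror each other with 2 libraries per label. Promoter windows came from RefSeq (GRCm38.p6).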

Additional observations from a re-analysis of the deposited data

Results flagged for a closer look

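One level stood apart in its group: Ccne1 was at 276.3 CPM in the R42A ESC clone A02, against 247.1 to 251.5 CPM in the other 3 clones. Chance flags about 1 in 20 groups, and 76 were looked at.

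For 16 genes the MD change differed between neural cells and ESC by the interaction test. Lower in neural cells than in ESC were Cdk6 (-1.78), Ccnd1 (-1.13), Ccne1 (-0.84), Cdc25a (-0.59), Mcm6 (-0.57), Ccnd3 (-0.53), Orc1 (-0.48), Mcm3 (-0.45), Mcm4 (-0.43), Gins1 (-0.42), Tyms (-0.41) and Mcm2 (-0.22). Higher were E2f2 (1.52), Cdkn1b (1.15), Pola1 (0.35) and Rb1 (0.34). Ccnd1, Cdk6, Cdc25a and Gins1 changed sign with both changes past the test, from higher in MD ESC to lower in MD neural cells, and E2f2 the other way. ESC and neural cells were in different library runs.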

How the results depend on the processing

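In ESC, MD against R42A, 19 genes passed; 6 passed without the library run term and 6 in run 1 alone, against 15 in run 2 alone; the cause was not tested. Leaving out 1 clone left 15 to 23 in ESC, 3 to 28 in neural cells (25 with all labels), 25 to 31 and 25 to 34 from ESC to neural cells in R42A and MD (29 and 29), and 0 to 23 for the difference between stages (16); the 0, without label 30, is edgeR's, with 14 genes at an unadjusted p under 0.05, and DESeq2 with all labels gave 20. Over all genes the numbers that passed also fell without label 09 and without label 30. The cause of these low counts was not tested. With each chromosome scaled separately Cdt1 turned to 0.26 in ESC and 0.13 in neural cells, Gins2 to 0.0097 in ESC and Cdc6 to -0.032 in neural cells, as genes of chromosomes 8 and 11. With ESC of run 2 in place of run 1, added after seeing the data, Gins2 turned to -0.52 in R42A, Pold1 to -0.71 in R42A and -1.06 in MD from ESC to neural cells, and Mcm2 to 0.071 in the difference between stages; the cause was not tested. Single libraries with the replicate block of their numbers gave 23, 22, 28, 31 and 17 calls in these 5 comparisons, and 23, 23, 28, 31 and 16 without it. With the clone label as a replicate block 29, 30 and 13 passed in R42A, in MD and in the difference, and it changed no call besides those given above. DESeq2, RLE size factors and no filter on low counts left each of the 5 counts within 1.5 times. Depth limits little here: these genes had at least 10.5 CPM in every clone sum.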
